A study of Homo sapiens with 2 samples.

Results

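The 40 genes described here run the glycolytic pathway or the cellular response to low oxygen, and were chosen by gene symbol from a count table of 58735 genes. All 40 symbols were found once each. Of the members, 25 serve glycolysis and its outlets, from glucose transport to lactate export and pyruvate entry into mitochondria. The other 15 belong to the hypoxia-inducible factor (HIF) pathway, to its oxygen sensors or to HIF targets outside glycolysis. The table held 2 RNA sequencing libraries of NCI-H460, an established human large cell lung carcinoma line derived from a pleural effusion. One came from cells transfected with an siRNA against the cytochrome P450 gene CYP4F11 (siCYP4F11), labelled as a CYP4F11 knockdown. The other came from control cells (siControl), labelled as wild type and described as receiving no siRNA against CYP4F11, with no control sequence named. Both refer to a 24 h transfection with a lipid reagent, and the labels put both in 1 batch. The sample labels name NCI-H460 and the design text NCI-H469, and the labels were followed.

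Glycolysis splits glucose into pyruvate in the cytosol, and most cultured carcinoma cells send much of that pyruvate to lactate even with oxygen present. HIF is a pair of an oxygen-regulated alpha subunit and the stable partner ARNT. With oxygen, prolyl hydroxylases of the EGLN family mark the alpha subunit, VHL binds the mark, and the subunit is degraded. At low oxygen the alpha subunit persists and raises transcription of glucose transporters, of most glycolytic enzymes and of genes such as VEGFA and CA9. Because this control acts on protein stability, the mRNA of a HIF subunit does not report HIF activity.

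The libraries held 16207785 counts (siControl) and 13002179 counts (siCYP4F11), with 1 library in each group. No difference therefore has a replicate check, no p-value was computed, and each ratio describes a single pair of libraries. In bulk RNA, fewer cells of a type and less RNA per cell cannot be told apart. Differences are given as the log2 ratio of siCYP4F11 over siControl after library-size scaling, with a 95% interval that covers counting error only. A gene was called when the ratio was at least 0.32 from 0 on the log2 scale and the interval excluded 0. CYP4F11 itself had 3180 counts in siControl and 972 in siCYP4F11, a log2 ratio of -1.40 (-1.51 to -1.30). The epithelial keratins KRT8, KRT18 and KRT19 were abundant, while the defining epithelial genes EPCAM and CDH1 had at most 8 counts in a library. The 5 epithelial markers thus disagreed and do not settle how epithelial the cells were. Markers of endothelial cells were at 0. The leukocyte markers, and the fibroblast markers COL1A1, COL1A2 and DCN, each summed as a set to at most 5.29 CPM (counts scaled to the library size) in a library.

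Most of the 40 genes differed little between the libraries. Of the members, 1 was called higher and 5 lower in siCYP4F11, and 34 were neither. The lower genes were SLC2A1, HK2, PFKFB3, PFKFB4 and EGLN2, and the higher gene was EGLN3. This is 2.5% of members higher and 12.5% lower, beside 6.92% higher and 8.62% lower among the 13942 measured genes (mean CPM of at least 1). The members' shares are read against that background, and neither stands as a result about the set. No member was 2-fold apart with an interval excluding 0, where the background was 0.703% higher and 1.26% lower. The median log2 ratio of the 40 was -0.04, against -0.01 for all measured genes. In size, 21 of the 40 (52.5%) lay within 0.1 of 0 on the log2 scale, against 30.7% of all measured genes. Above a mean of 100 CPM, where 23 members and 2062 genes lie, the shares were 65.2% and 44.5%. Of those 23 members 0 were called higher and 2 lower (SLC2A1 and HK2), beside 2.62% and 4.41% of the genes at that level. The counting interval excluded 0 for 52.5% of the 40 members and for 37.8% of all measured genes. Above a mean of 100 CPM these shares were 65.2% and 65.5%, so an interval clear of 0 does not by itself set a gene apart.

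**Figure D1:**
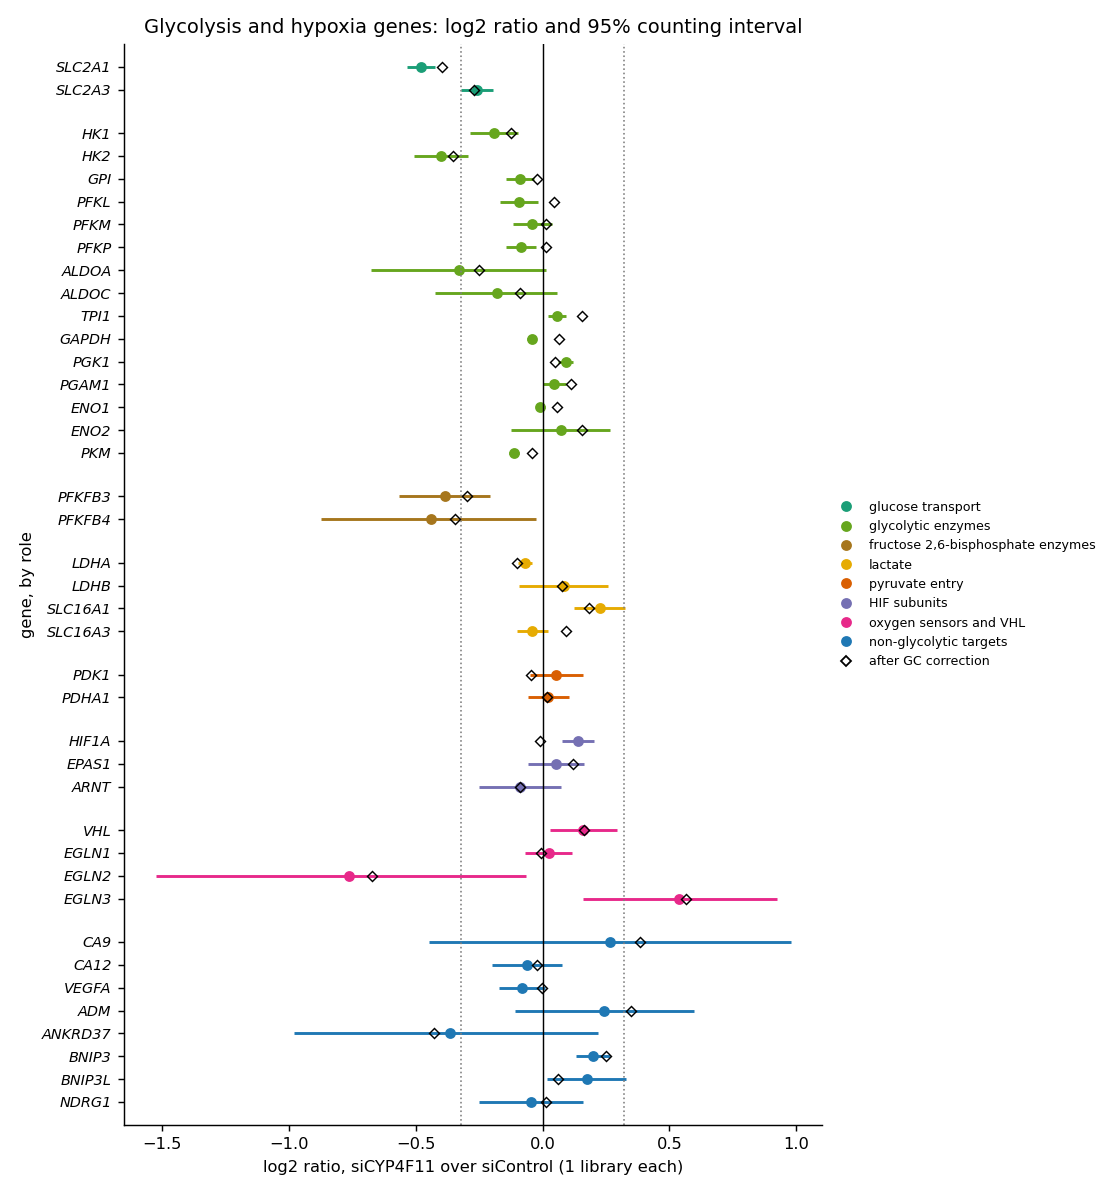
Log2 ratio of siCYP4F11 over siControl for each of the 40 genes (rows, ordered by role), with filled points for the ratio, bars for the 95% counting interval, open diamonds for the ratio after GC correction and dotted lines at the call threshold. Glucose transporters, HK2 and both PFKFB members lie left of 0, while most enzymes from GPI onwards lie close to it.

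Promoter sequence gives the context in which HIF acts, since HIF binds the core letters ACGTG or GCGTG. The 250 bases before each transcription start were read from the RefSeq promoter table (GRCh38.p14), which matched 34 of the 40 members with 62 starts. SLC2A3, SLC16A1, VHL, VEGFA, BNIP3L and NDRG1 were not matched. With both motifs searched on both strands, 36 of 62 member starts (58.1%) held a match, against 43.2% of all 35116 starts in the table. Those 35116 starts include genes not measured here. Some member windows, such as those of SLC2A1, ENO1 and PKM, lie wholly inside annotated exons. The 2 shares are therefore a description only. The palindrome CACGTG counts once on each strand. A match is a run of letters and not a measured binding site. Windows are shown for HK2 and PFKFB3 (called lower), EGLN3 (called higher) and SLC16A3 (close to 0), with matches in capitals. They lie at chr2:74834920-74835169 (plus strand), chr10:6144671-6144920 (plus), chr14:33951075-33951324 (minus) and chr17:82228792-82229041 (plus), in that order, and HK2, PFKFB3 and SLC16A3 have further starts not shown.
HK2: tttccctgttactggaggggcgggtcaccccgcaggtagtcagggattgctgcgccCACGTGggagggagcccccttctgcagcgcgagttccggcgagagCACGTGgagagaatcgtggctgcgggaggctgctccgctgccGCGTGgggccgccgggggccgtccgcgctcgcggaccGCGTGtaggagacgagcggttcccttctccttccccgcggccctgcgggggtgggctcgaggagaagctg
PFKFB3: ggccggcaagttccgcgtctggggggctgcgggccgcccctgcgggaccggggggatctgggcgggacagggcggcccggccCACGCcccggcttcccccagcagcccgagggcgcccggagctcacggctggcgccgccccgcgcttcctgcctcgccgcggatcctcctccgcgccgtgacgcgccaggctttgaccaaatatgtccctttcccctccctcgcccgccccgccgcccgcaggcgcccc
EGLN3: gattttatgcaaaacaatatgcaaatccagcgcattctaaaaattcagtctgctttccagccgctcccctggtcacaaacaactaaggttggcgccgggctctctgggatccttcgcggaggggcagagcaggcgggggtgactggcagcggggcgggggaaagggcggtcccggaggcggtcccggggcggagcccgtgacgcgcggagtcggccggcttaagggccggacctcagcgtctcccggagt
SLC16A3: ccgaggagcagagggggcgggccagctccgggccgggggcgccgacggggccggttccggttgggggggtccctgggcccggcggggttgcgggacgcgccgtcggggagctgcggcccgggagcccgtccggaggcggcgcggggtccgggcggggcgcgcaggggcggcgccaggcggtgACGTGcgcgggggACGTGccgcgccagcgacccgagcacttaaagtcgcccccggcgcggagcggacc
The HK2 window held 6 matches, of which 4 come from 2 CACGTG palindromes, and the SLC16A3 window held 2. PFKFB3 had 1 and EGLN3 0 in these windows. The windows at other starts of HK2 and PFKFB3 held 3 and 2 matches, and those of SLC16A3 from 0 to 3. Of the other called members, all lower, SLC2A1 had 0 matches, PFKFB4 1, and EGLN2 2 and 0 at its starts. Each shown window has the most matches among the gene's windows with at most 30 bases inside annotated exons. The shown windows therefore do not represent the called genes, and a link between matches and ratios was not tested.

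Both glucose transporters were lower in siCYP4F11. SLC2A1 encodes GLUT1, the main basal glucose carrier of carcinoma cells, and SLC2A3 encodes the high-affinity carrier GLUT3. SLC2A1 (chr1:42925375-42959176, minus strand, GRCh38) had 7479 counts in siControl and 4337 in siCYP4F11, or 463 and 332 CPM. Its log2 ratio was -0.48 (-0.53 to -0.43), which is 71.7% of the control level. Among the 720 measured genes within 2-fold of its mean level, 10 (1.39%) had a ratio as low, itself included. SLC2A3 had 5129 and 3466 counts, at -0.26 (-0.32 to -0.20), short of the call threshold. Per gene length, SLC2A1 stood at 313 TPM (counts per base, scaled to the library) in siControl and 223 in siCYP4F11, and SLC2A3 at 164 and 137. SLC2A1 was the more abundant carrier in both libraries, with 65.5% of the pair's counts per base in siControl and 62.0% in siCYP4F11.

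Hexokinases trap glucose in the cell by phosphorylation, and HK2, which HIF induces, had the lowest ratio of the 15 glycolytic enzymes. HK2 (chr2:74833981-74893359, plus strand) had 1862 counts against 1140, or 115 and 87.3 CPM. The log2 ratio was -0.40 (-0.51 to -0.29), or 75.7% of control, and 2.24% of the 3438 genes of similar level were as low. HK1, the constitutive form, had 2152 and 1525 counts and lay less far below 0, at -0.19 (-0.29 to -0.10). The isoforms were nearly balanced per length, at 67.5 TPM for HK1 and 60.6 for HK2 in siControl. In siCYP4F11 they stood at 58.9 and 45.7 TPM, and HK1 made up 56.3% of the pair (counting SE 0.963), against 52.7% in siControl (counting SE 0.789).

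The phosphofructokinase step differed little. GPI, which converts glucose 6-phosphate to fructose 6-phosphate, had 6225 and 4728 counts, at -0.09 (-0.15 to -0.04). PFKP, the platelet-type subunit, had 5325 and 4056 counts (-0.09), PFKL, the liver type, 3279 and 2488 (-0.09), and PFKM, the muscle type, 3184 and 2503 (-0.04). After correction for GC content, described below, PFKP, PFKL and PFKM all came to lie slightly above 0, between 0.01 and 0.05. PFKP supplied 57.8% of phosphofructokinase counts per base in siControl and 57.5% in siCYP4F11, so the isoform makeup stayed within 1 point for each of the 3 genes.

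PFKFB3 and PFKFB4 encode bifunctional enzymes that set the level of fructose 2,6-bisphosphate, the strongest activator of phosphofructokinase, and both were lower. Their relative PFKFB2, not a member and described below, was called higher at 0.58, with 144 and 174 counts. PFKFB3 (chr10:6144934-6254644, plus strand), whose product chiefly makes the activator and which HIF induces, had 663 counts in siControl and 410 in siCYP4F11. That is 41.1 against 31.4 CPM, a log2 ratio of -0.39 (-0.57 to -0.21), and 4.39% of the 4967 genes of similar level were as low. PFKFB4 (chr3:48517684-48562015, minus strand) had 128 and 76 counts, a log2 ratio of -0.44 (-0.87 to -0.03). Its interval came close to 0, and 11.7% of 2811 genes of similar level were as low. With GC correction the ratios were -0.30 for PFKFB3 and -0.35 for PFKFB4, and neither was called. PFKFB3 made up 83.8% of the pair in siControl and 84.3% in siCYP4F11.

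Aldolase splits fructose 1,6-bisphosphate, and its genes carried few reads. ALDOA, the form usual in muscle and many tumours, had 182 and 117 counts, a log2 ratio of -0.33 with an interval (-0.68 to 0.01) that included 0. ALDOA lies at 9.18 TPM in siControl, beside 1070 for TPI1, the next enzyme of the pathway. In the GENCODE 29 annotation, 42.3% of ALDOA exon bases lie inside exons of AC093512.2 on the same strand, which had 43 and 25 counts. No source used here says how reads in shared exons were counted, so the ALDOA level is uncertain. With AC093512.2 added the ratio was -0.36. ALDOC, the brain-type form, had 348 and 248 counts, at -0.18 (-0.42 to 0.06). The aldolase shares are uncertain for the same reason.

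The lower part of glycolysis, from triose phosphates to pyruvate, held the most abundant members. TPI1, which interconverts the triose phosphates, had 14596 and 12279 counts (log2 ratio 0.06). GAPDH, the oxidising step, had 66407 and 52101 counts, at -0.04 (-0.06 to -0.03), and stood at 4400 and 4250 TPM, rank 21 of all genes in siControl. PGK1, the first ATP-yielding step, had 21188 and 18246 counts, at 0.09 (0.06 to 0.12). PGAM1, which moves the phosphate group, had 8404 and 7014 counts, at 0.05. These 4 genes lay within 0.1 of 0, although counting intervals for TPI1, GAPDH and PGK1 excluded 0 because their counts were so high. With GC correction the ratios were 0.16 for TPI1, 0.07 for GAPDH, 0.05 for PGK1 and 0.11 for PGAM1, so TPI1 and PGAM1 passed 0.1 and GAPDH turned from below 0 to above it.

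ENO1, the main enolase, had 61733 counts in siControl and 49630 in siCYP4F11, a log2 ratio of -0.01 (-0.03 to 0.01), and scaling by total counts put it at 0.003. ENO2, the neuron-type enolase, had 473 and 402 counts (0.07, -0.12 to 0.27) and made up 0.935% and 0.988% of enolase counts per base. PKM, which makes pyruvate and whose splice forms are summed in gene counts, had 42761 and 31967 counts, at -0.11 (-0.13 to -0.09). Summed over the 15 glycolytic enzymes, counts took 1.47% of the siControl library (Wilson 95% interval 1.463 to 1.475) and 1.45% of siCYP4F11 (1.443 to 1.456). The log2 ratio of the sums was -0.03. The median over these 15 genes was -0.09, with 4 genes above 0 and 11 below, and 0.01 after GC correction.

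**Figure D2:**
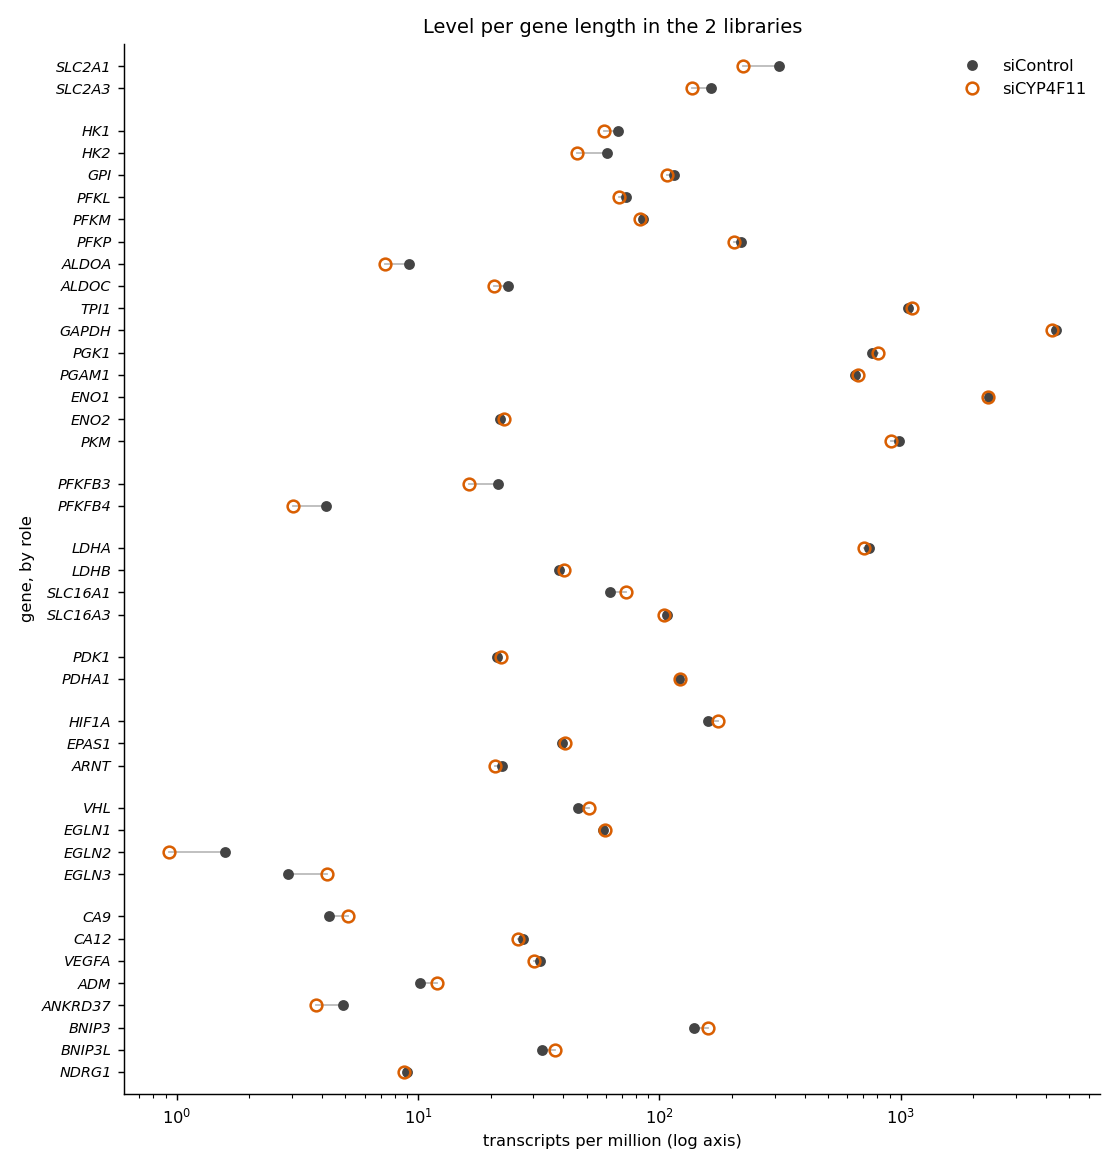
Level per gene length (TPM, log axis) of each of the 40 genes in siControl (filled) and siCYP4F11 (open), ordered by role. Levels run from 1.59 TPM for EGLN2 to 4400 TPM for GAPDH in siControl, and the paired points lie close together for most genes.

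Pyruvate leaves glycolysis as lactate or enters the mitochondrion, and none of the 6 members on these routes was called. Among all measured genes 6.92% were called higher and 8.62% lower, so 6 genes without a call do not stand as a result. LDHA, the lactate dehydrogenase subunit favoured in tumours and a HIF target, had 23270 and 17949 counts, a log2 ratio of -0.07 (-0.10 to -0.04). LDHB, the heart-type subunit, had 578 and 495 counts, at 0.08 (-0.09 to 0.26). LDHA made up 95.1% of the pair per base in siControl and 94.6% in siCYP4F11. For LDHB, 33.4% of exon bases lie inside exons of AC010197.2 on the same strand, which had 0 counts, so its share is uncertain.

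Of the lactate carriers, SLC16A1 had a counting interval above 0, and that of SLC16A3 included 0. SLC16A1 encodes MCT1, which moves lactate in either direction, and had 1673 counts against 1581, or 104 and 121 CPM. Its log2 ratio was 0.22 (0.12 to 0.32), short of the call threshold, and 11.4% of the 3175 genes of similar level were as high. SLC16A3, the HIF-induced exporter MCT4, had 4894 and 3848 counts, at -0.04 (-0.10 to 0.02). With GC correction both lay above 0, at 0.18 for SLC16A1 and 0.09 for SLC16A3. SLC16A3 remained the larger per base, at 63.3% of the pair in siControl and 59.0% in siCYP4F11, a difference of -4.37 points (counting SE 0.977). PDK1, the HIF-induced kinase that switches off pyruvate dehydrogenase, had 1605 and 1348 counts, at 0.05 (-0.05 to 0.16). PDHA1, the catalytic subunit that PDK1 phosphorylates, had 2748 and 2257 counts, at 0.02 (-0.06 to 0.10), with 21.3% of exon bases inside exons of MAP3K15 on the opposite strand.

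**Figure D3:**
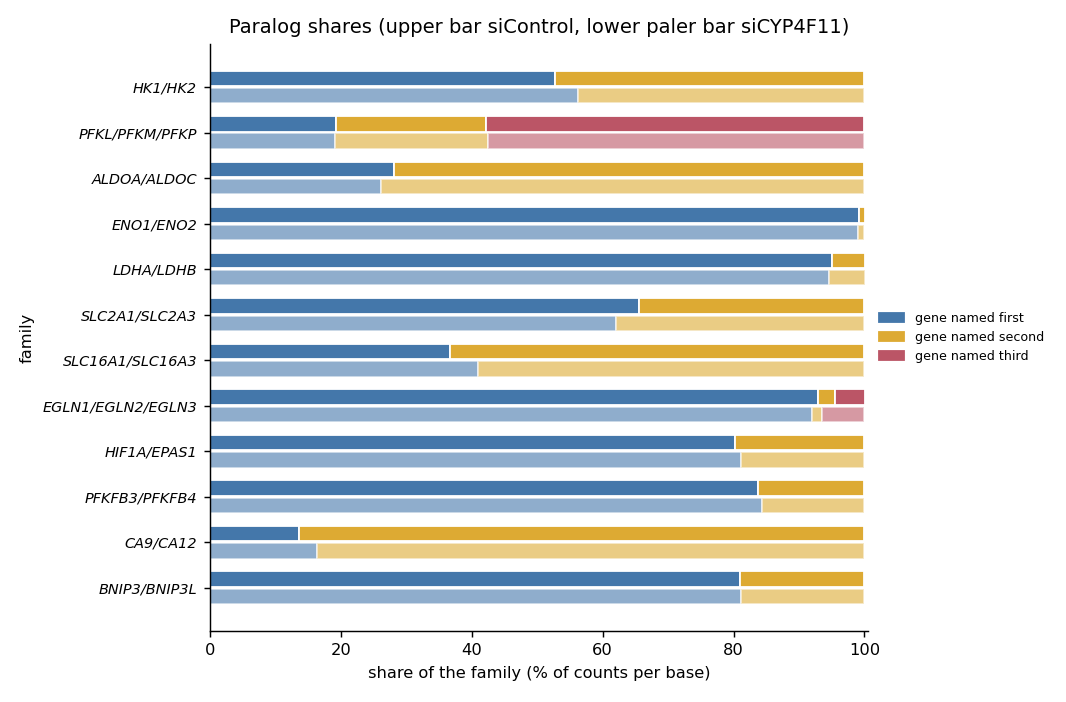
Share of each paralog in its family, as a percentage of counts per base of gene length, for 12 families. The upper bar of each pair is siControl and the lower, paler bar siCYP4F11, and the largest shifts, in SLC16A1/SLC16A3, HK1/HK2 and SLC2A1/SLC2A3, are under 5 points.

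The HIF subunits themselves were near 0. HIF1A, the oxygen-regulated subunit found in most cells, had 4157 counts in siControl and 3705 in siCYP4F11, a log2 ratio of 0.14 (0.08 to 0.20). Its longest transcript is poor in GC, at 36.4%, and the GC-corrected ratio was -0.01. EPAS1, which encodes HIF-2 alpha, had 1458 and 1224 counts (0.05, -0.06 to 0.16), and ARNT, the shared partner, 737 and 560 (-0.09, -0.25 to 0.07). Per length, HIF1A made up 80.2% of the 2 alpha subunits in siControl and 81.1% in siCYP4F11.

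Among the oxygen sensors, EGLN3 and EGLN2 were called in opposite directions at low counts. EGLN3 (chr14:33924231-34462774, minus strand), a prolyl hydroxylase that HIF itself induces, had 108 counts in siControl and 127 in the shallower siCYP4F11 library, or 6.69 and 9.73 CPM. Its log2 ratio was 0.54 (0.16 to 0.92), or 145% of control, and 4.74% of the 3018 genes of similar level were as high. EGLN2 (chr19:40798996-40808433, plus strand) had 53 and 25 counts, a log2 ratio of -0.76 (-1.53 to -0.07), and with GC correction it was no longer called, at -0.68. For EGLN2, 30.6% of exon bases lie inside exons of other genes on the same strand, the readthrough RAB4B-EGLN2 and AC008537.1, both at 0 counts, so its level is uncertain. EGLN1, the main oxygen sensor, had 2154 and 1771 counts, at 0.02 (-0.07 to 0.12), and made up 92.9% and 92.0% of the family per base. VHL, the recognition subunit of the ubiquitin ligase, had 979 and 885 counts, at 0.16 (0.03 to 0.29). EGLN1 held most of the family's counts per base and was close to 0, while the called sensors together made up under 10%. These shares rest on the EGLN2 count and are uncertain for the same reason.

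HIF targets outside glycolysis gave no call among 8 genes, beside 6.92% called higher and 8.62% lower among all measured genes. In so few genes this does not stand as a result about the targets. VEGFA, the angiogenic growth factor, had 2344 and 1792 counts, a log2 ratio of -0.08 (-0.17 to 0.01). CA12, a membrane carbonic anhydrase that regulates pH, had 1005 and 779 counts, at -0.06 (-0.20 to 0.08). CA9, the carbonic anhydrase used as a hypoxia marker, had 36 and 35 counts, at 0.27 with a wide interval of -0.45 to 0.98. The vasoactive peptide gene ADM had 140 and 134 counts, at 0.24 (-0.11 to 0.60), and ANKRD37, a small ankyrin repeat gene, 64 and 40, at -0.37 (-0.98 to 0.22). CA9 and ANKRD37 have 38.5% and 35.2% of their exon bases inside exons of a gene on the opposite strand (ARHGEF39 and UFSP2), and no source used here gives the strand setting of the counting. At these counts a difference of the size of the call threshold was not detectable for CA9, ADM or ANKRD37.

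BNIP3 and BNIP3L, mitochondrial receptors for mitophagy, were slightly higher with counting intervals above 0, and neither was called. Of the genes of similar level, 11.6% were as high as BNIP3 and 21.8% as high as BNIP3L. BNIP3 had 3752 counts in siControl and 3481 in siCYP4F11, or 232 and 267 CPM, a log2 ratio of 0.20 (0.13 to 0.27). BNIP3L had 714 and 651 counts, at 0.17 (0.02 to 0.33). With GC correction BNIP3 was at 0.25 and BNIP3L at 0.06. NDRG1, a stress-induced gene with a strong hypoxia response in many cell lines, had 449 and 352 counts, at -0.04 (-0.25 to 0.16). Over the 8 targets the median was 0.06, with 4 genes above 0 and 4 below.

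**Figure D4:**
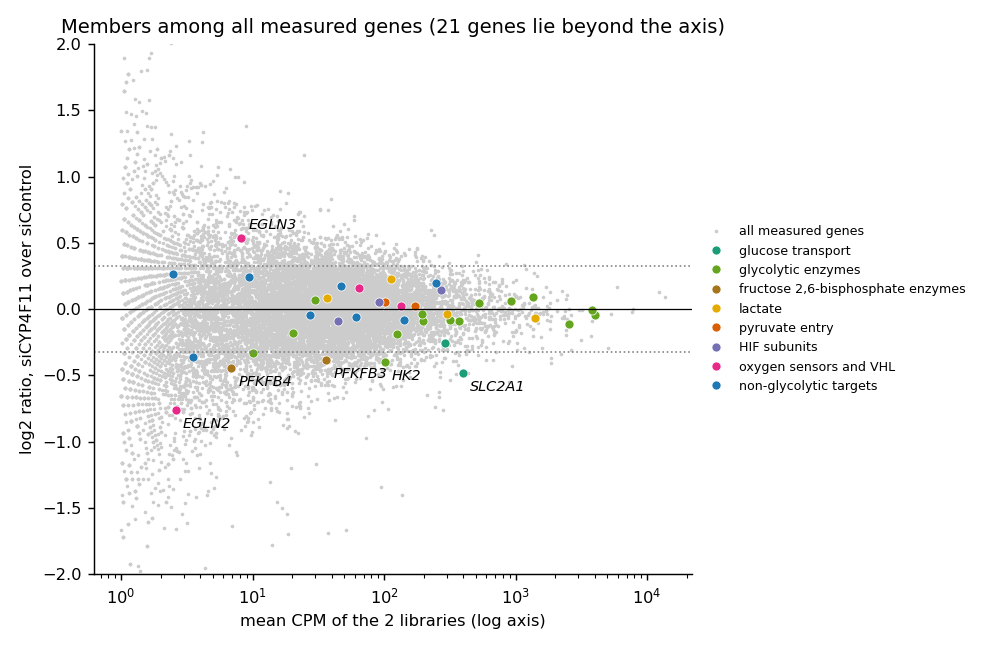
Log2 ratio of siCYP4F11 over siControl against mean CPM (log axis) for all 13942 measured genes (grey) and the 40 members (coloured by role), with dotted lines at the call threshold and 21 genes beyond the axis. SLC2A1 lies at the lower edge of the cloud for its level, while EGLN2, EGLN3 and PFKFB4 lie where the cloud is wide.

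Glycolysis genes as a whole were compared with the HIF pathway and the non-glycolytic targets. Of the 25 glycolysis genes 4 were called lower and 0 higher, and of the other 15 genes 1 was called in each direction. Among all measured genes, 8.62% were called lower and 6.92% higher. The calls rest on few genes, are read against that background, and do not stand as a result about either group. The median log2 ratio was -0.07 over the 25 glycolysis genes and 0.05 over the other 15. The glycolysis median was thus 0.12 lower on the log2 scale, a difference of -0.12. This difference moved with GC content. Over 9590 genes above a mean of 10 CPM, genes with GC-rich longest transcripts had lower log2 ratios. Spearman's rho was -0.42, given as a description because genes share the same pair of libraries. Median GC content was 53.1% for the glycolysis genes, 50.2% for the other 15 and 47.9% for all measured genes. After the GC correction the medians were 0.01 for glycolysis and 0.02 for the others, and the difference was -0.003. The ratios of SLC2A1 and HK2 after correction were -0.40 and -0.35 and were still called, as was EGLN3 at 0.57, whereas PFKFB3 (-0.30), PFKFB4 (-0.35) and EGLN2 (-0.68) were not. That leaves 1 member higher and 2 lower, beside 5.92% and 7.2% of all measured genes under the same correction. The part of GC content in these differences was not tested.

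**Figure D5:**
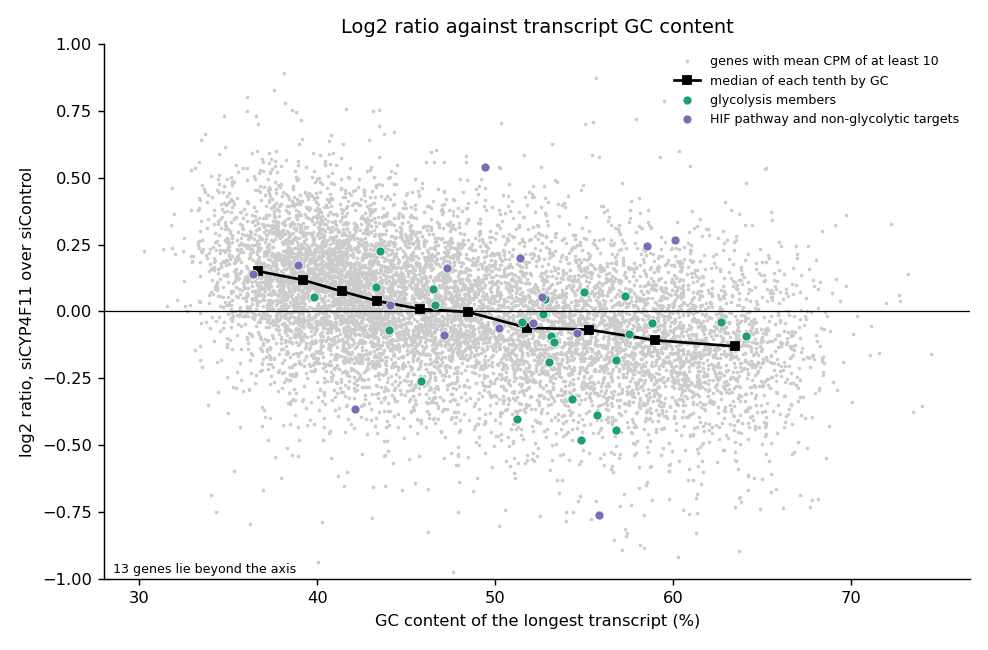
Log2 ratio of siCYP4F11 over siControl against the GC content of the longest transcript (%), for genes above a mean of 10 CPM (grey), for glycolysis members (green) and for HIF pathway and non-glycolytic target members (purple). Black squares are medians of equal-sized GC bins of the grey genes, from 0.15 in the lowest bin to -0.13 in the highest, and 13 grey genes lie beyond the axis.

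Further genes of these pathways were described from separate lists. Of 38 further genes of glucose and pyruvate metabolism, 25 were measured, of which 7 were called higher and 0 lower. This is 28.0%, beside the 6.92% of all measured genes called higher. The lists were chosen with earlier results of these data known, so the share is a description and does not stand as a result about the pathway. The median was 0.17, and 0.18 with GC correction, under which 5 of the 7 were still called and MPC1 (0.29) and SLC16A7 (0.18) were not. The largest were BPGM, which makes 2,3-bisphosphoglycerate, with 195 and 250 counts, at 0.66 (0.39 to 0.94), PFKFB2, the heart-type relative of PFKFB3, at 0.58 (0.25 to 0.91), and SLC2A6, a sugar transporter of the GLUT family, at 0.48 (0.14 to 0.82). PFKFB2 was thus on the other side of 0 from PFKFB3 and PFKFB4. Also called higher were the subunits of the mitochondrial pyruvate carrier, MPC1 at 0.33 (0.02 to 0.64) and MPC2 at 0.40 (0.25 to 0.56), the monocarboxylate transporter SLC16A7 at 0.38 (0.26 to 0.50) and PDK4, a pyruvate dehydrogenase kinase, at 0.43. These 4 were named after their values were seen. For MPC2, 22.5% of exon bases lie inside exons of a gene on the opposite strand.

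Of 30 measured further HIF targets, 5 (16.7%) were called higher and 4 (13.3%) lower, beside 6.92% and 8.62% of all measured genes. This list was also chosen with earlier results known, so these shares are a description only. Their median was 0.03, and -0.008 with GC correction. Under that correction PLOD2 (0.15) and RORA (0.19) were no longer called higher and GYS1 (-0.27) no longer lower, while HMOX1 (0.42) was newly called higher. ZNF395, with 34.9% of exon bases shared with a gene on the same strand, was at 0.41 (0.06 to 0.77), and GBE1, the glycogen branching enzyme, at 0.37 (0.26 to 0.48). On the lower side LOX, a collagen-crosslinking enzyme, had 39 and 10 counts (-1.61, -2.82 to -0.63), PPFIA4 208 and 88 (-0.93, -1.31 to -0.57) and MXI1, an antagonist of MYC, 437 and 243 (-0.54, -0.77 to -0.31). Of 9 further HIF pathway genes, CUL2, the scaffold of the VHL ligase, was called higher at 0.40 (0.23 to 0.58) but not with GC correction (0.31), and EP300, a coactivator of HIF, lower at -0.43 (-0.56 to -0.30). The 7 genes of the pentose phosphate pathway, which branches from glucose 6-phosphate, gave no call, with a median of 0.10.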

How the data were processed

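Poly-A RNA was sequenced from directional dUTP libraries, per the labels' protocols. The authors deposited whole-number read counts per gene, not normalised, with gene model lengths in bases. Tools in the submitters' processing notes are edgeR 4.0.16, featureCounts 2.0.6, HISAT2 2.2.1 and fastp, on GRCh38. No source used here gives the strand setting. All 58735 gene entries were identical to GENCODE 29. The table held 0 further sample columns.

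Library sizes came from TMM (edgeR 4.0.16, R 4.3.3), with 16207785 and 13002179 deposited counts. Log2 ratios had 0.5 added to each count, and 95% intervals were exact Clopper-Pearson intervals of the siCYP4F11 share of counts. Intervals cover counting error only, since each group had 1 library. The reads carry no molecular identifiers. A quasi-likelihood test was not run because each group had 1 library. Measured genes had at least 1 CPM on average. TPM used the deposited lengths. The GC correction was a lowess fit (span 0.3) on the longest GENCODE transcript, over genes above a mean of 10 CPM. The ratio function was tested on simulated data. Alternatives were other library sizes (DESeq2 1.42.0 among them), counts added, filters, folds, pseudogene counts and the GC correction.

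All 40 members were named, and of each further list up to 3 genes called in each direction, plus 4 further glycolysis genes chosen after their values were seen. One such gene is not reported here. Members and lists were chosen with earlier results of these data known. Further HIF targets whose call changed with GC correction were also named. Python 3.11.15, numpy 2.4.6, scipy 1.17.1, pandas 2.3.3, statsmodels 0.14.6 and matplotlib 3.10.9 were used.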

Additional observations from a re-analysis of the deposited data

How the results depend on the processing

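No paired analysis was possible because each group had 1 library. No replicate could be left out for the same reason. CYP4F11 stayed lower under the 5 alternatives run on it, from -1.40 to -1.34. The member counts, 1 higher and 5 lower, held under the 3 other library sizes, with 2 added to each count, with pseudogene counts added and with no filter. A mean CPM of at least 5, or leaving out 6 members that overlap other genes by at least 20% of exon bases, gave 1 and 4. A 1.5-fold threshold gave 0 members higher and 1 lower (284 and 479 of all genes), and a 2-fold threshold 0 and 0 (98 and 175), which follows from the stricter rule. With the GC correction 1 was higher and 2 lower, and the medians moved to -0.32 for the PFKFB pair and to -0.0133 for pyruvate entry. The GC correction also turned the sign of the medians of glycolysis (0.01), glycolytic enzymes (0.01) and HIF subunits (-0.009), the mean that of the oxygen sensors (-0.01), and leaving out overlapping members that of the lactate genes (-0.04). The cause was not tested. The difference between glycolysis and the other members ran from -0.17 to -0.12, except -0.003 with GC correction. Of 280 member ratios over 7 alternatives, 13 left their counting interval, all with GC correction, and 0 called members changed sign. The median of all measured genes ran from -0.0055 to 0.0062 over the library sizes. The overlap alternatives were chosen after seeing the data. Depth limits EGLN2, CA9 and ANKRD37 most, with at most 64 counts in a library.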

Other observations

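MIF and TIGAR carried few reads, and some genes of these pathways, at low or high counts, share exons with other annotated genes. MIF, a cytokine gene and HIF target, had 20 counts in siControl and 11 in siCYP4F11, and 61.9% of its exon bases lie inside exons of another gene, MIF-AS1 on the opposite strand and AP000350.4 on the same strand. TIGAR, a phosphatase that lowers fructose 2,6-bisphosphate, had 45 and 47 counts and 45.6% of exon bases shared, 42.6% on the same strand. DDIT4, a stress gene with 41.2% shared on the opposite strand and 0 on the same strand, had 9583 and 7448 counts. The part of shared exons in these counts was not tested.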
